A study of Mus musculus with 22 samples.

Results

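The complement genes described here are C1qa, C1qb, C1qc, C2, C3, C4b, C3ar1, C5ar1 and Serping1. They are the 9 of 17931 gene symbols in the testes RNA-seq count table that carry these names. They were taken by name, whatever their counts, but the list was made with earlier results of these data known. RNA was sequenced from whole testes of 3 wild-type (WT) and 3 MLX KO mice aged 7 months, in littermate pairs numbered 1 to 3. MLX is a transcription factor of the extended MYC network that senses nutrients through its partners. The MLX KO mice lack Mlx constitutively, in all tissues, through a deletion of exons 3 to 6 made in 129S4 embryonic stem cells, and the WT males were chosen as proven breeders. The mice of both groups were otherwise untreated, as far as the labels state. The question was which transcripts differ in testes without MLX. All values below are reads per gene or values computed from them.

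Complement is a cascade of plasma and tissue proteins that marks microbes, dying cells and debris for removal. C1q, built of an A, a B and a C chain, binds its targets and activates the proteases C1r and C1s, which cut C4 and C2. The fragments form an enzyme that cuts C3, the component on which all activation routes meet, and the small fragments C3a and C5a signal through the receptors C3aR (C3ar1) and C5aR1 (C5ar1). C1 inhibitor (Serping1) blocks C1r, C1s and the lectin-pathway proteases. The liver secretes much of the circulating complement, C1q comes mainly from macrophages and related myeloid cells, and many tissues make further components locally. In the testis, macrophages lie in the interstitium, outside the seminiferous tubules in which germ cells develop.

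In mm10 the 3 C1q chains lie side by side on the minus strand of chromosome 4, C1qb at chr4:136880126-136886200, C1qc at chr4:136889801-136892936 and C1qa at chr4:136895916-136898844. The gaps are 3.6 kb between C1qb and C1qc and 2.98 kb between C1qc and C1qa. C2 (chr17:34862602-34882100), C4b (chr17:34728139-34743902) and C3 (chr17:57203967-57228136) lie on chromosome 17, where the gene for factor B, Cfb, begins 87 bases from C2. C3ar1 is at chr6:122847140-122856157, C5ar1 at chr7:16246743-16259540 and Serping1 at chr2:84765360-84775444. Of the 50-base windows of each gene's GENCODE transcripts, 38.7% of those of C2 also occurred in the gene model Gm20547 and 34.6% of those of C4b in its paralog C4a, neither of which was analysed here. Levels of C2 and C4b are therefore uncertain, as reads from shared windows may be assigned to either gene. Windows were compared by sequence and not by position, so a shared window need not come from a second copy. The other 7 genes shared no such window with another gene.

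The promoter windows of 3 of the genes are shown because C1qb and C1qc are neighbours that encode chains of one protein and were both higher in MLX KO, and C3 had the largest LFC of the members tested. Each runs from 250 bases before to 50 bases after the RefSeq start in GRCm38.p6, on the minus strand, and is written 5′ to 3′. Capitals mark the matches to the motifs searched.
C1qb, chr4:136886151-136886450: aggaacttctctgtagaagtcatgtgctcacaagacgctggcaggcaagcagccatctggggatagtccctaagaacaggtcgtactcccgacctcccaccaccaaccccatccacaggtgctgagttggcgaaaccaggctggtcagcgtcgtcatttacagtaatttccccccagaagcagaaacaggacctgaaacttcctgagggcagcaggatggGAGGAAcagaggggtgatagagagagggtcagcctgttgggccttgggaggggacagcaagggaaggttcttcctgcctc
C1qc, chr4:136892865-136893164: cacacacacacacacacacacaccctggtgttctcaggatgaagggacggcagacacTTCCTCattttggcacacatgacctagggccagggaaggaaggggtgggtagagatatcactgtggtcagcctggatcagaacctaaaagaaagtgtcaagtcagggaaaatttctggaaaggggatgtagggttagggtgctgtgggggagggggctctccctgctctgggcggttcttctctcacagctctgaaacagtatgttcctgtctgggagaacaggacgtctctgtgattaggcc
C3, chr17:57228087-57228386: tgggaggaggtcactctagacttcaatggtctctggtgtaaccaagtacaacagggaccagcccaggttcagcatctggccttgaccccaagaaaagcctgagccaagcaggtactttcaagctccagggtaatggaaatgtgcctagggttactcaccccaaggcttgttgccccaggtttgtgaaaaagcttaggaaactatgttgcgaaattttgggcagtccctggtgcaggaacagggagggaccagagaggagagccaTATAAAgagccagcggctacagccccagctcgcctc
The motifs, searched on both strands, were the E-box bound by MLX dimers and other MYC network proteins, CACGTG, the TATA box, TATAAA, the site of STAT factors, TTCNNNGAA, and the core of the site of PU.1, GAGGAA. The PU.1 core lay at position -30 from the start of C1qb and, as TTCCTC, at position -193 of C1qc, a motif held by 28.3% of 32851 promoter windows of this length. TATAAA lay at position 15 of C3 and, in the window of C3ar1, at position -235, and 13.6% of all windows held it. The window of C5ar1 held none of the motifs. CACGTG, in 7.15% of all windows, and TTCNNNGAA, in 8.3%, were in none of the 5 windows searched, those of C1qb, C1qc, C3, C3ar1 and C5ar1. A match is a run of letters only.

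The 6 libraries held between 16674678 and 19742726 counts, 14640 genes passed the filter on low counts, and 45.4% of them passed an adjusted p of 0.05 (quasi-likelihood test of edgeR). MLX KO was higher in 24.8% and lower in 20.6%. Counts of Mlx itself (chr11:101086707-101092207) were 128, 96 and 98 (WT) and 94, 109 and 102 (MLX KO), with an LFC (log2 fold change, MLX KO against WT) of -0.18 and an edgeR adjusted p of 0.326. Because exons outside the deletion can still be counted, this does not check the labels. Testis markers were plentiful in every library. Markers of elongating spermatids summed to 18400 to 19200 CPM (counts scaled to a common library size, with TMM factors) in WT and 10600 to 13000 in MLX KO, and Sertoli markers to 389 to 391 and 534 to 633 CPM. Epididymal markers summed to at most 5.02 CPM, and Lcn5, Lcn9 and Adam7 had 3 or fewer counts in every library. Whole tissue was sequenced, so a difference in the number of cells of a type and one in RNA per cell cannot be told apart in any value below.

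Of the 9 complement genes, 8 were tested and all of those were higher in MLX KO, while C5ar1 had too few counts for the test. Among all 14640 genes, 24.8% were called higher. The members were chosen with earlier results of these data known, so the comparison with all genes is a description and not a test. The LFC of the 8 ranged from 1.10 for C2 to 2.93 for C3, with a median of 1.42, against 0.03 for all genes tested and a median size of 0.40 among all genes called. An LFC of at least 1 was fitted for each of the 8 and for 5.85% of all genes. In each of the 8, every MLX KO library lay above every WT library, as in 30.3% of all genes tested. The plot of CPM by library shows the separation, and that the C5ar1 values of the genotypes overlap.

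**Figure D1:**
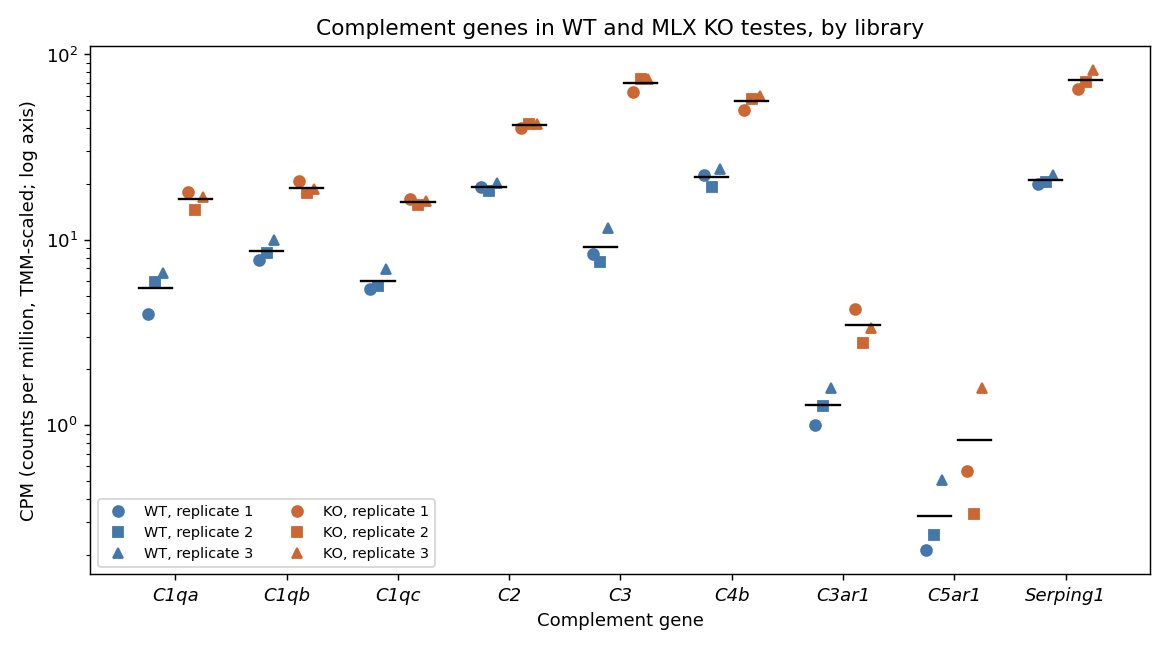
CPM of the 9 complement genes (x axis) on a log axis, with 1 point per library, blue for WT and orange for MLX KO, a shape for each replicate number and a black line at the group mean. The MLX KO points lie above all WT points in 8 genes, with the widest gap for C3 (9.17 against 70.2 CPM on average), and overlap them in C5ar1.

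C1qa, C1qb and C1qc encode the chains of the recognition molecule of the classical pathway. C1qa had 3.95, 5.91 and 6.6 CPM in WT replicates 1 to 3 and 18.1, 14.4 and 17.0 in MLX KO. Every MLX KO library lay above every WT library, and WT replicate 1 was the lowest of all. The means were 5.49 ± 1.37 and 16.5 ± 1.89 (SD, n = 3 each), a ratio of 3.01, and the LFC was 1.60 (SE 0.16, edgeR adjusted p = 3.57e-05).

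C1qb had 7.8, 8.52 and 9.92 CPM in WT against 20.7, 17.8 and 18.9 in MLX KO, with an LFC of 1.13 (SE 0.11, edgeR adjusted p = 2.58e-05). C1qc had 5.43, 5.6 and 6.99 CPM in WT against 16.6, 15.4 and 16.1 in MLX KO, with an LFC of 1.41 (SE 0.11, edgeR adjusted p = 9.24e-06). Both genes were separated without overlap, and MLX KO replicate 1 was the highest library for each of the 3 chains. Within the littermate pairs the log2 ratio was 2.20, 1.29 and 1.37 for C1qa, 1.41, 1.06 and 0.93 for C1qb and 1.61, 1.46 and 1.21 for C1qc, so the first pair had the widest difference in all 3.

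The proportions of the chains were compared within each library. C1qb gave 45.4, 42.5 and 42.2% of the summed C1q counts in WT against 37.4, 37.4 and 36.3% in MLX KO, a difference in means of -6.35 percentage points. C1qa gave 23.0, 29.5 and 28.1% in WT against 32.7, 30.3 and 32.7% in MLX KO, a difference of 5.04 points, which was 3.12 without WT replicate 1. Neither overlapped between genotypes, and both had a two-sided exact permutation p of 0.1, the smallest that 3 against 3 libraries allow. That test ignores the pairing. An exact sign-flip test of the within-pair differences gave p = 0.25 for both, the smallest that 3 pairs allow. The same exact sign-flip test gave p = 0.75 for the share of C1qc. C1qc gave 31.6, 27.9 and 29.7% in WT against 29.9, 32.3 and 31.0% in MLX KO, which overlapped (difference 1.3 points, exact permutation p = 0.4). With 1 library left out, that difference ran from 0.392 (without WT replicate 2) to 2.22 (without WT replicate 1), and was 0.686 without MLX KO replicate 2. These shares come from 315 to 417 summed counts per WT library and 861 to 1074 per MLX KO library, and do not depend on how libraries are scaled.

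The protease C2 becomes the catalytic part of the enzyme that cuts C3 in the classical and lectin pathways. Its CPM was 19.2, 18.3 and 20.3 in WT against 40.0, 42.0 and 42.2 in MLX KO. The replicates of each genotype lay close together, with means of 19.3 ± 0.995 and 41.4 ± 1.22 (SD, n = 3 each). The LFC of 1.10 (SE 0.07, edgeR adjusted p = 2.01e-06) was the smallest of the 8. The log2 ratios within pairs were 1.06, 1.20 and 1.06.

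C3, the central component, showed the largest change of the 8 genes. Its raw counts were 159, 119 and 205 in WT against 1215, 1340 and 1396 in MLX KO, or 8.38, 7.57 and 11.6 CPM against 62.7, 74.1 and 73.9. Every MLX KO library was far above the highest WT library, and the means of 9.17 ± 2.11 and 70.2 ± 6.55 (SD, n = 3 each) gave a ratio of 7.66. The LFC was 2.93 (SE 0.13, edgeR adjusted p = 1.94e-07), which ranked 25 from the top of 14640 genes by LFC. Within pairs the log2 ratio was 2.90, 3.29 and 2.68.

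C4b encodes C4, whose larger fragment binds covalently to surfaces and holds C2. It had 22.4, 19.2 and 24.0 CPM in WT against 50.4, 57.6 and 59.4 in MLX KO. The genotypes did not overlap, MLX KO replicate 1 was the lowest of its group, as it was for C3, and the LFC was 1.35 (SE 0.09, edgeR adjusted p = 3.1e-06). Log2 ratios within pairs were 1.17, 1.59 and 1.31.

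The receptors had far fewer counts than the components. C3ar1, the receptor for C3a, had 19, 20 and 28 counts in WT against 82, 50 and 63 in MLX KO, or 1.0, 1.27 and 1.58 CPM against 4.23, 2.77 and 3.34. The groups did not overlap, with an LFC of 1.43 that carried the largest SE of the 8 (0.24, edgeR adjusted p = 0.000851). C5ar1, the receptor for C5a, had 4, 4 and 9 counts in WT against 11, 6 and 30 in MLX KO. MLX KO replicate 2, with 6 counts, lay below WT replicate 3, while MLX KO was higher in 3 of 3 pairs. Fitted without the filter on low counts, its LFC was 1.34 (SE 0.59, edgeR adjusted p = 0.0914), and of the 7 alternatives that tested it, it passed the threshold in the one without MLX KO replicate 2 (LFC 1.71, adjusted p = 0.0333). The others had adjusted p from 0.0728 to 0.305. A difference in C5ar1 was thus not established at this depth.

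Serping1 encodes C1 inhibitor, which forms inactive complexes with C1r and C1s. Its CPM was 20.0, 20.4 and 22.4 in WT against 65.1, 70.6 and 82.5 in MLX KO, without overlap and with MLX KO replicate 3 the highest. The means of 21.0 ± 1.3 and 72.8 ± 8.89 (SD, n = 3 each) differed by a ratio of 3.47. The LFC of 1.79 (SE 0.09, edgeR adjusted p = 5e-07) was second to that of C3 among the 8. By LFC it ranked 140 from the top of all genes tested, followed by C1qa at 206, C3ar1 at 304, C1qc at 315, C4b at 369, C1qb at 627 and C2 at 668.

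Ratios between members, which do not depend on library scaling, were compared in 36 pairs of genes. Libraries of the genotypes did not overlap in 17 of them, including all 8 pairs with C3, which share its values. The share of such pairs among all genes was not computed, so these counts have no background to be read against. The log2 ratio of C3 to C4b averaged -1.27 in WT and 0.33 in MLX KO, a difference of 1.60, and that of C3 to Serping1 was -1.22 in WT and -0.05 in MLX KO, a difference of 1.17. C3 had thus fewer counts than C4b in each WT library and more in each MLX KO library. Among the other pairs, C2 to Serping1 differed by -0.69 and C1qb to Serping1 by -0.66, both without overlap. C1qc to C3ar1 differed by -0.00 and C1qb to C2 by 0.03, with overlap. Every pair without overlap had a two-sided exact permutation p of 0.1, the smallest possible, and an adjusted p over the 36 pairs of 0.212. No ratio could pass the threshold with this number of libraries, so the test decides nothing about single ratios.

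Levels can be compared between genes only per length, here as CPM per kilobase of RefSeq exon. In WT the order was Serping1 (11.5 ± 0.712, SD, n = 3), C1qb (7.93 ± 0.977), C2 (7.29 ± 0.376), C1qc (5.7 ± 0.814), C1qa (5.07 ± 1.27), C4b (4.05 ± 0.449), C3 (1.78 ± 0.41), C3ar1 (0.299 ± 0.0672) and C5ar1 (0.126 ± 0.0623). The neighbours C1qb and C2, C1qc and C1qa, and C1qa and C4b overlapped in their libraries and the other neighbours did not. In MLX KO Serping1 was again the highest at 40.0 ± 4.89 CPM per kilobase, followed by C1qb (17.3 ± 1.34), C2 (15.7 ± 0.463), C1qa (15.3 ± 1.74), C1qc (15.2 ± 0.568), C3 (13.7 ± 1.27) and C4b (10.3 ± 0.885). C2, C1qa and C1qc overlapped there, and the libraries of C1qa also overlapped with those of C1qb and of C3. C3 thus lay under C4b in WT, with 1.47 to 2.25 against 3.56 to 4.44 CPM per kilobase. In MLX KO it lay above C4b, with 12.2 to 14.4 against 9.34 to 11.0. The places of C4b and C2 in both orders are uncertain, because 34.6% and 38.7% of their 50-base windows also occur in another gene. C3ar1 (0.801 ± 0.172) and C5ar1 (0.323 ± 0.26) remained the lowest in MLX KO.

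**Figure D2:**
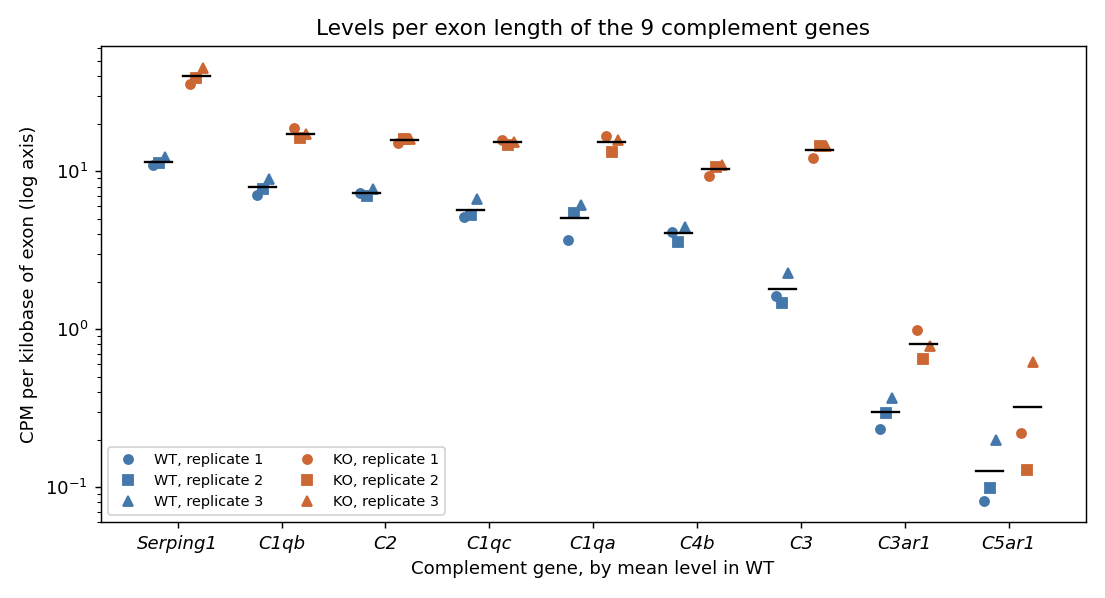
CPM per kilobase of exon (log y axis) of the 9 genes in order of their WT mean, with 1 point per library, blue for WT and orange for MLX KO, and a black line at the group mean. C3 lies under C4b in WT (1.78 against 4.05 on average) and above it in MLX KO (13.7 against 10.3). Both receptors lie far under the other genes. Levels of C2 and C4b are uncertain, as other genes share part of their sequence.

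Beyond the members, 49 complement genes were listed by role, 45 had a row and 32 were tested. Of these, 14 were higher, 2 lower and 16 not past the threshold (50.0% past, against 45.4% of all genes), with a median LFC of 0.61 against 0.03. The genes that did not pass are named below after their values were seen. The plot of fold changes by role sets them beside the members.

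**Figure D3:**
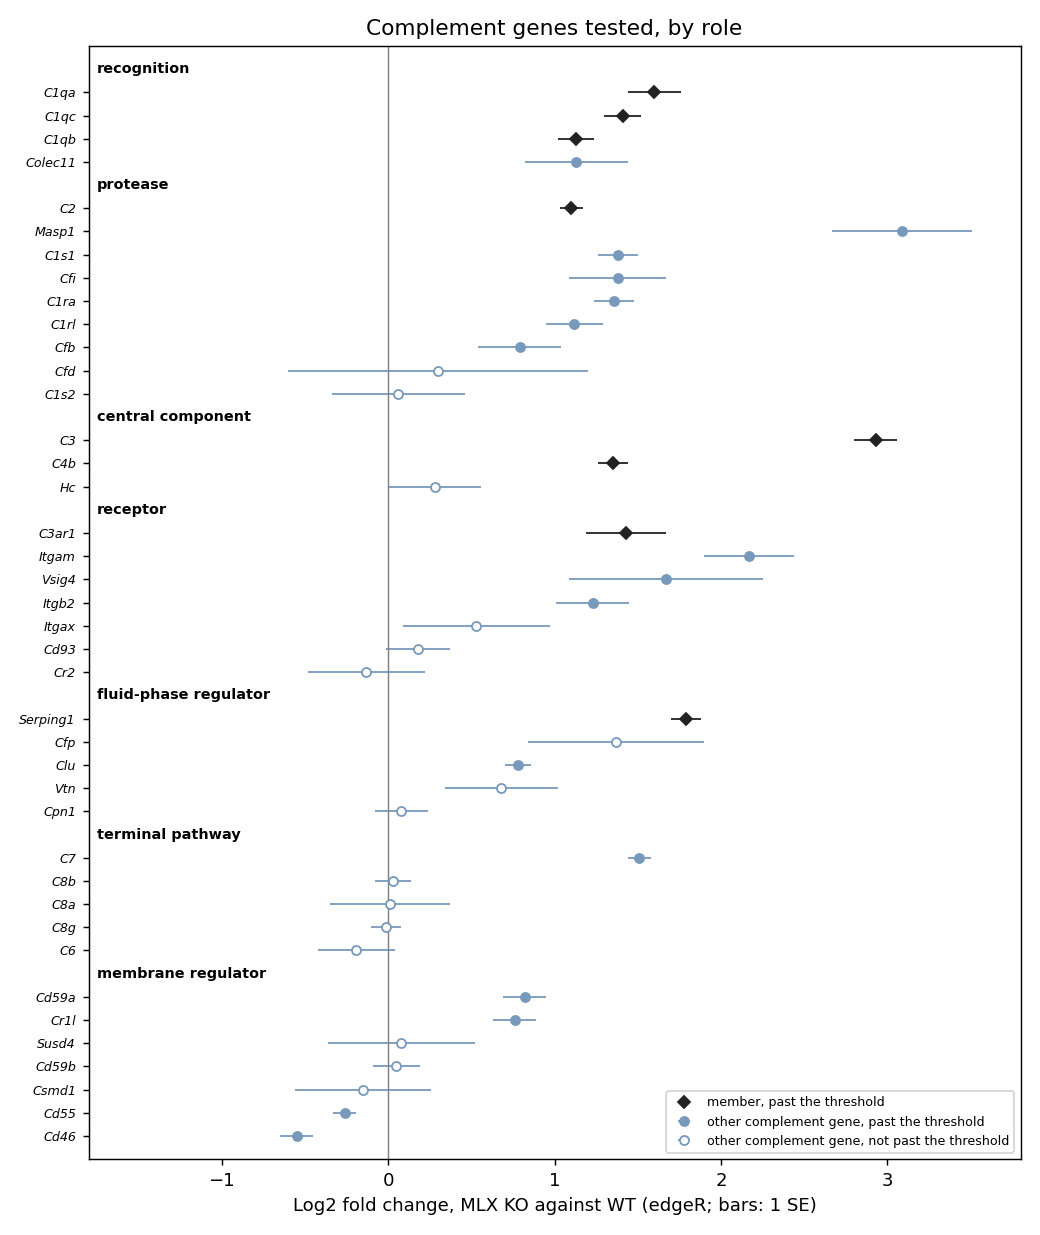
LFC of MLX KO against WT (x axis, bars 1 SE) for the 40 complement genes tested, grouped by role, with black diamonds for members, filled circles for other genes past an edgeR adjusted p of 0.05 and open circles for genes not past it. The members lie between 1.10 and 2.93, whereas terminal pathway genes other than C7 lie near 0 and Cd46 and Cd55 lie under it.

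Proteases and activators of the early steps held 6 of the higher genes among 8 tested, while 24.8% of all genes tested were called higher. Masp1, a protease of the lectin pathway, had 5, 6 and 11 counts in WT against 37, 84 and 82 in MLX KO, with an LFC of 3.09 (SE 0.42, edgeR adjusted p = 0.000216). It was above that of C3 in the reported fit, but not without WT replicate 1 (2.82 against 2.86) or without MLX KO replicate 2 (2.88 against 2.90). C1s1 (LFC 1.38, SE 0.12) and C1ra (LFC 1.36, SE 0.12), the partners of C1q and targets of C1 inhibitor, were also higher, against 1.13 to 1.60 for the C1q chains. C1ra had 4.64, 5.79 and 5.13 CPM in WT against 12.3, 13.4 and 14.1 in MLX KO. C1rl, a relative of C1r, had an LFC of 1.12, and Cfi, which cuts C3b and C4b, one of 1.38, a call that was lost in DESeq2 with the replicate block (LFC 1.34, adjusted p = 0.0739). Cfb, the alternative pathway's counterpart and neighbour of C2, had 24, 16 and 24 counts in WT against 49, 29 and 41 in MLX KO (LFC 0.79, SE 0.25, edgeR adjusted p = 0.0238), but lost its call in DESeq2 (adjusted p = 0.106), in DESeq2 with the replicate block (0.234) and without WT replicate 1 (0.0554), WT replicate 2 (0.0875), MLX KO replicate 1 (0.0725) or MLX KO replicate 3 (0.0658). Cfd and C1s2 did not pass (LFC 0.30 and 0.06).

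Of the recognition molecules outside C1q, Colec11, a collectin of the lectin pathway, was the only one of 7 with enough counts to test, with 9, 13 and 18 counts in WT against 39, 31 and 25 in MLX KO (LFC 1.13, SE 0.31, edgeR adjusted p = 0.0125). That call was lost without WT replicate 1 (LFC 0.86, adjusted p = 0.0557) and in DESeq2 with the replicate block (adjusted p = 0.129). Hc, which encodes C5, the substrate after C3, had 18, 17 and 13 counts in WT against 20, 18 and 25 in MLX KO, with overlap and an LFC of 0.28 (SE 0.28, edgeR adjusted p = 0.434). C4a was not analysed here.

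Among the receptors, Itgam and Itgb2, the chains of complement receptor 3, were higher in MLX KO. Itgam had 10, 8 and 13 counts in WT against 62, 47 and 42 in MLX KO (LFC 2.17, SE 0.27, edgeR adjusted p = 0.000122), and Itgb2 had 34, 23 and 25 against 83, 50 and 75 (LFC 1.23, SE 0.22, adjusted p = 0.00123). Vsig4, a receptor for C3 fragments on tissue macrophages, had 7, 11 and 3 counts in WT against 8, 28 and 37 in MLX KO. Its genotypes overlapped, and its call (LFC 1.67, SE 0.58, edgeR adjusted p = 0.0345) was lost without WT replicate 1 (0.0896), WT replicate 3 (0.112), MLX KO replicate 2 (0.0935) or MLX KO replicate 3 (0.141) and in DESeq2 with the replicate block (0.112). Itgax, Cd93 and Cr2 did not pass, with LFCs of 0.53, 0.18 and -0.13. C5ar2, the second C5a receptor, had 1, 3 and 2 counts in WT against 5, 5 and 1 in MLX KO and was not tested.

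The terminal pathway, which builds the pore in membranes, had 5 genes tested, of which C7 passed. C7 had 1238, 948 and 1069 counts in WT against 3180, 3472 and 3309 in MLX KO, or 61.9 ± 2.88 and 177 ± 14.1 CPM (SD, n = 3 each), with an LFC of 1.51 (SE 0.07, edgeR adjusted p = 1.94e-07). C6, C8a, C8b and C8g had LFCs between -0.19 and 0.03. The pathway's last component, C9, had at most 2 counts in any library.

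Regulators in the fluid phase and on membranes did not all move one way. Clusterin (Clu), a secreted inhibitor of the pore that is abundant in Sertoli cells, had 737 ± 24.6 CPM in WT and 1270 ± 142 in MLX KO (SD, n = 3 each, LFC 0.78, SE 0.08, edgeR adjusted p = 2.51e-05). Cfp, Vtn and Cpn1 did not pass, with LFCs from 0.08 to 1.37. On membranes, Cd59a, which blocks the pore, and Cr1l (Crry), a rodent inhibitor of C3 cleavage, were higher, with LFCs of 0.82 (SE 0.13, edgeR adjusted p = 0.000457) and 0.76 (SE 0.13, adjusted p = 0.00099). Cd46, which in the mouse is found mainly on the acrosome of sperm, fell from 18.8 ± 0.31 to 12.9 ± 1.56 CPM (SD, n = 3 each, LFC -0.55, SE 0.10, edgeR adjusted p = 0.00115). Cd55, which speeds decay of the C3-cutting enzymes, had an LFC of -0.26 (SE 0.07, edgeR adjusted p = 0.00705), a call lost when libraries were scaled by their totals alone (LFC -0.12, adjusted p = 0.14). Cd59b (118, 77 and 118 counts against 116, 105 and 126, LFC 0.05), Susd4 and Csmd1 did not pass, and Cd55b was not analysed here.

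Most macrophage markers tested were, like the complement genes, higher in MLX KO. Of 14 macrophage markers 13 had a row and were tested. Of all genes tested, 24.8% were called higher and 20.6% lower. In MLX KO 12 were higher, among them Csf1r (12.0 ± 1.43 to 29.1 ± 3.35 CPM, SD, n = 3 each, LFC 1.28), Cd68 (LFC 1.05), Mrc1 (0.42), Cd163 (1.58) and Lyz2 (1.79), and Aif1 was lower (LFC -0.33). Among the 12, Cx3cr1, named after its values were seen, passed narrowly (edgeR adjusted p = 0.0494), with overlapping genotypes and a log2 ratio of -0.09 in pair 3. None of the 13 was at 0. Summed, the list held 445 to 467 CPM in WT and 446 to 480 in MLX KO, but Aif1 made up 82.0 to 82.7% of that sum in WT and 62.9 to 67.5% in MLX KO. Without Aif1, a choice made after seeing this, the sum was 79.4 to 84.3 CPM in WT and 156 to 171 in MLX KO, a ratio of 2.01. Of the 12 markers left, Mrc1 had the most CPM in both genotypes (37.8 ± 1.55 and 50.6 ± 5.27, SD, n = 3 each). Its LFC of 0.42 was the smallest of the 12, so the smaller sum depends on it.

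Each complement gene was set against that sum as a log2 ratio of CPM within each library, which removes library scaling. Against all 13 markers the mean ratio was higher in MLX KO for each of the 9 genes, by 1.09 for C2 to 2.94 for C3. The 13-marker sum hardly differed between genotypes (ratio of means 1.01). These differences therefore nearly repeat the LFCs and do not compare the genes with most of the markers. Libraries did not overlap for 8 genes (two-sided exact permutation p = 0.1, the smallest possible), and did for C5ar1 (difference 1.14, exact permutation p = 0.2). That test ignores the pairing. An exact sign-flip test within pairs gave p = 0.25 for each of the 9 genes, the smallest that 3 pairs allow. The C5ar1 difference was 0.49 without MLX KO replicate 3 and 1.64 without MLX KO replicate 2. Against the 12 markers without Aif1, C3 had log2 ratios of -3.25, -3.48 and -2.78 in WT against -1.32, -1.21 and -1.14 in MLX KO, a difference of 1.95 without overlap. Serping1 differed by 0.78, C1qa by 0.61, C1qc by 0.42 and C4b by 0.35, also without overlap (exact permutation p = 0.1 each). These differences depend on Mrc1, the largest part of the 12-marker sum, and were not computed without it. Ratios to the 12-marker sum were not tested within pairs. C3ar1 (0.42), C5ar1 (0.14), C1qb (0.13) and C2 (0.10) overlapped, with exact permutation p of 0.2, 0.9, 0.5 and 0.2. The plot of these ratios shows both marker sums.

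**Figure D4:**
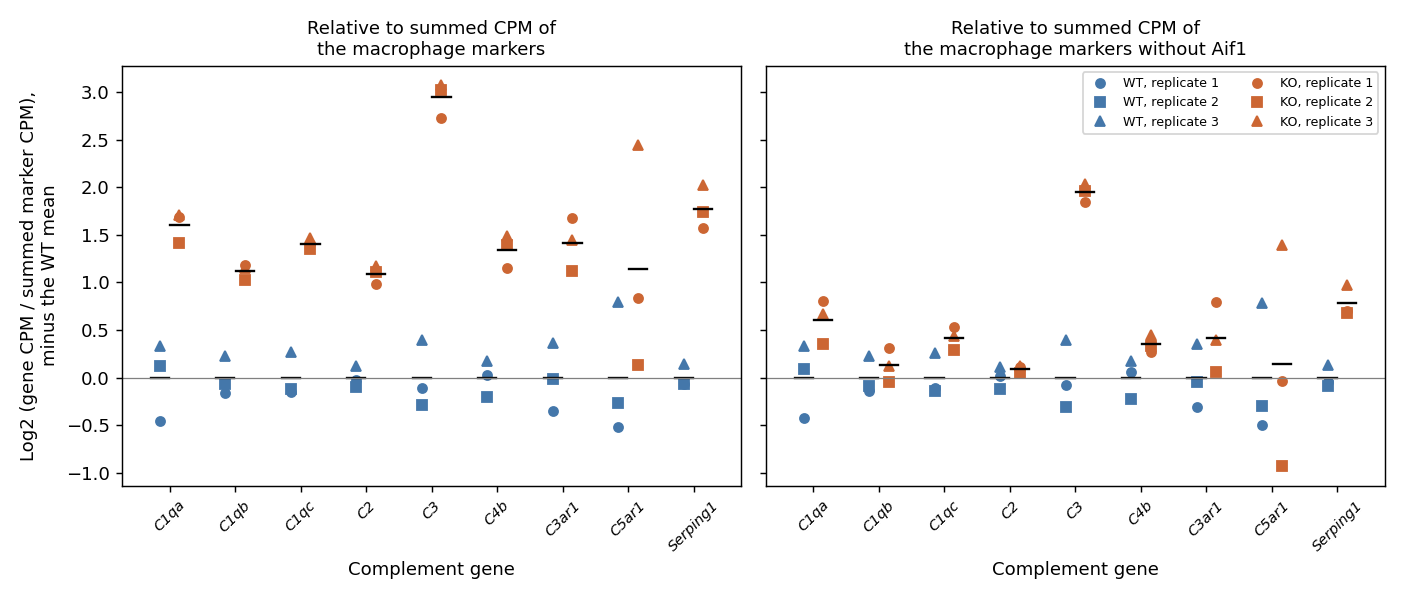
Log2 ratio of each complement gene's CPM to the summed CPM of macrophage markers, minus the WT mean of that ratio (y axis), with 1 point per library, blue for WT and orange for MLX KO, and black lines at the means. With 13 markers (left) the 8 genes other than C5ar1 lie above WT, and without Aif1 (right) C3 stays highest at 1.95 while C1qb, C2, C3ar1 and C5ar1 overlap with WT.

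Other lists also differed between genotypes, in data where 24.8% of all genes tested were called higher and 20.6% lower. Leydig cell markers were higher in 7 of 7 genes (758 to 775 CPM in WT, 1700 to 2180 in MLX KO, summed), Sertoli markers in 9 of 9, peritubular myoid markers in 4 of 5 (72.1 to 87.1 and 108 to 119 CPM), fibroblast markers in 3 of 4 (51.1 to 59.6 and 96.3 to 136 CPM) and endothelial markers in 2 of 7 (42.4 to 52.7 and 57.1 to 63.6 CPM). Markers of elongating spermatids were lower in 7 of 7 and of round spermatids in 6 of 6 (1800 to 1830 and 1500 to 1610 CPM). Spermatocyte markers were lower in 5 of 7, and of 7 spermatogonial markers 2 were higher and 1 lower. T cell, B cell and erythroid markers did not pass in any of 2, 1 and 1 genes tested, and of neutrophil markers only Mpo was tested and was lower (LFC -1.84), with S100a8 and Elane at 3 or fewer counts in every library. The part of any of these cell types in the complement values was not tested.

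The 5 genes whose profile lay closest to the mean profile of the C1q chains were Arhgdib, Ntn4, Laptm5, Cadps and Slc46a1. Closeness was the root mean square difference of log2 CPM over the 6 libraries, each gene centred on its WT mean, and was 0.071, 0.114, 0.121, 0.123 and 0.125. Arhgdib had 1.95, 2.16 and 2.88 CPM in WT against 6.09, 5.75 and 5.98 in MLX KO. Among the members, C1qc (0.0704) and C3ar1 (0.118) were as close as these genes, while C1qb (0.184), C1qa (0.187), C4b (0.19), C2 (0.244), Serping1 (0.329) and C3 (1.12) were farther. C1qa, C1qb and C1qc are part of the mean that they were compared with.

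Other choices of test, scaling, filter, pairing and libraries left the calls of the 8 tested members in place in 15 of 15 alternatives each. Across them the LFC of C3 lay between 2.82 and 3.13, that of Serping1 between 1.70 and 1.94, that of C1qa between 1.40 and 1.76 and that of C2 between 1.07 and 1.24. The highest adjusted p of any of them was 0.00527, for C3ar1 without WT replicate 2. The plot of fold changes over the fits shows that no alternative brought any of the 8 to an LFC under 1.

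**Figure D5:**
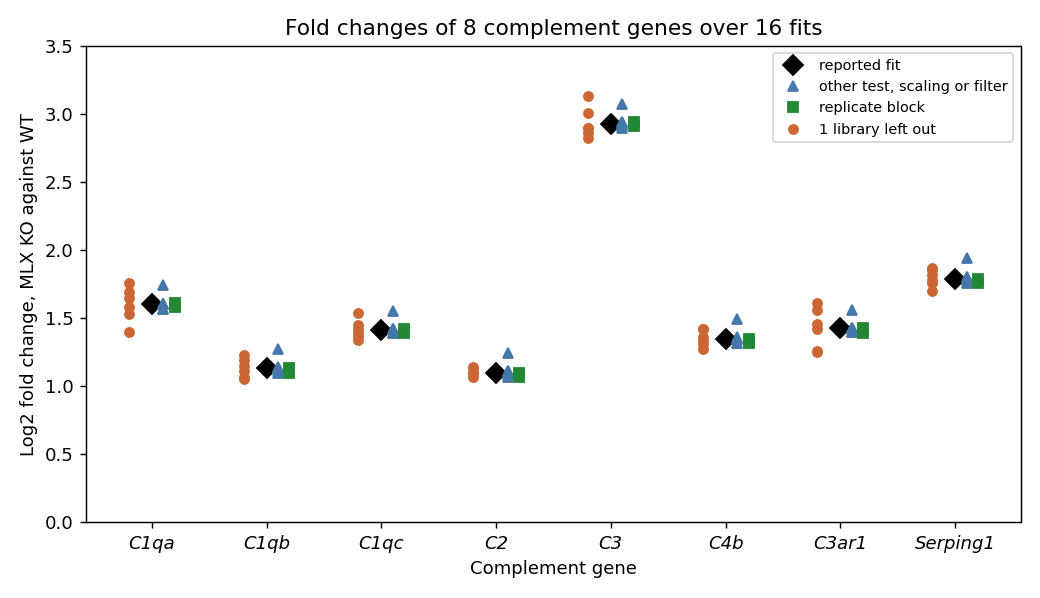
LFC of MLX KO against WT (y axis) of the 8 tested complement genes in the reported fit (black diamond) and in 15 alternatives, with blue triangles for other tests, scalings or filters, green squares for fits with the replicate block and orange circles for fits without 1 library. The spread within a gene, at most from 1.40 to 1.76 for C1qa and 1.25 to 1.61 for C3ar1, is small beside the distance from 0.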

How the data were processed

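RNA was extracted from whole testes with Trizol. The authors aligned the reads to mm10 with TopHat and deposited 1 table of whole-number counts per gene symbol and library. The counting tool, annotation and strand setting are not given in the sources used here. The table also holds the authors' own comparison (fold changes, errors and p-values), which was not used, and 0 columns of samples without a label. The ChIP-Seq samples were not analysed here.

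Of 17933 rows, 2 repeated a symbol and were used once. The 6 libraries held 16674678 to 19742726 counts. These limit precision through counting error, so that genes with few counts are the least certain. Counts were compared in edgeR 4.0.16 (R 4.3.3) with filterByExpr (minimum count 10), TMM and the quasi-likelihood test, in a model of genotype alone. P-values were adjusted by Benjamini-Hochberg over 14640 genes. The threshold was an adjusted p of 0.05, and tests were two-sided. CPM uses TMM-scaled library sizes. Profiles used log2 CPM with a prior count of 2. Groups with 3 or fewer counts in each library were treated as at the floor. Ratios and shares were compared with exact permutation tests over libraries. Shares and ratios to the sum of all 13 macrophage markers were also compared within pairs by an exact sign-flip test. The quasi-likelihood test of edgeR was also run on simulated counts with known changes.

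Replicate numbers pair littermates, per the sample titles and the study's methods. Deviations from the group means correlated at 0.145, 0.0363 and 0.121 within same-numbered pairs and at most 0.033 otherwise. Replicates of a group differed by more than sampling noise (chi-square of at least 2.73 per degree of freedom). Separate mice gave the replicates.

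Members and lists were chosen with earlier results of these data known. The genes named were the members, other listed complement genes past the threshold, a fixed list (C4a, Hc, C5ar2, Cfb, C1ra, C1s1, Cd46, Cd55, Cd55b, Cd59a, Cd59b, Cr1l), 5 macrophage markers (Csf1r, Cd68, Mrc1, Cd163 and Lyz2) and the 5 profiles closest to C1q. Complement genes not past the threshold and other markers were named after their values were seen. Alternatives were DESeq2 1.42.0, edgeR's exact test, other scalings and filters, a replicate block, and leaving out each library. Coordinates and promoters are from RefSeq (GRCm38.p6). Promoter windows were matched for 5 of the 9 members. Some genes of the complement list are not reported here and are in none of its counts.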

Additional observations from a re-analysis of the deposited data

How the results depend on the processing

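The count of members past the threshold was 8 in every alternative except without MLX KO replicate 2, where C5ar1 made it 9. With the replicate block the LFC of C3 was 2.94 in edgeR and 2.91 in DESeq2, that of C3ar1 was 1.43 (adjusted p = 0.00032) and 1.39 (adjusted p = 0.00443), and the block changed no call of a tested member. Other complement genes past the threshold numbered 12 (DESeq2 with the replicate block) to 17, against 16, and 11 of the 16 kept their call in every alternative that tested them. All genes called numbered 4579 in DESeq2 with the replicate block and 7395 without MLX KO replicate 1, against 6649. Scaling by library totals alone moved the median LFC of all genes by 0.14 and the members' median to 1.56. The LFC of Cd59b, 0.05 and not past the threshold, was -0.07 without WT replicate 2 and -0.01 without MLX KO replicate 3.

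The values that moved most were the log2 ratios to macrophage markers, because Aif1 holds most of their sum. Summing without Aif1, chosen after seeing the data, gave differences of 0.61 for C1qa, 0.13 for C1qb, 0.42 for C1qc, 0.10 for C2, 1.95 for C3, 0.35 for C4b, 0.42 for C3ar1, 0.14 for C5ar1 and 0.78 for Serping1. The geometric mean of the markers gave 0.56, 0.08, 0.37, 0.05, 1.90, 0.30, 0.37, 0.10 and 0.73 in the same order. With 3 libraries a group the exact permutation test of these ratios cannot go below p = 0.1, so they carry no call to lose.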
